A study of Danio rerio with 4 samples.

Results

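The myeloid effector genes described here are 7 zebrafish genes whose products neutrophils and macrophages use to kill microbes, raise inflammation or take up debris and lipid. They are mpx, lyz, ncf4, pycard, alox5ap, marco and apoeb, and they were taken by their symbols in the annotation of the array. All 7 were found, on 10 of the 15502 probe sets that are not controls and among 8793 annotated genes. The gene mpx has 4 probe sets and each of the other 6 genes has 1. Expression was compared between zSP and zMP cells, both from adult zebrafish kidney, which is the blood-forming organ of fish. Per the labels, kidney cells of low forward and side scatter, called lymphoid there, were split by how brightly the DNA dye Hoechst stained them, zSP being the side population and zMP the main population. No genotype, strain, treatment or exact age is given, and no agent other than the dye is named. Tissue from 20 fish was used in 3 sorting experiments, the lysates were pooled within a population, and each RNA was divided between 2 arrays, so the arrays repeat the measurement of 1 pool and not of fish.

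Neutrophils and macrophages are phagocytes of the myeloid branch of blood formation. A neutrophil carries granules with a peroxidase and other antimicrobial proteins, and assembles an oxidase on its membranes that makes the superoxide from which the peroxidase forms stronger oxidants. Macrophages recognise particles through scavenger receptors, digest them in lysosomes and export lipid on apolipoproteins. Both cell types can signal through leukotrienes and through the inflammasome, a protein platform that activates inflammatory caspases. In the zebrafish kidney most granulocytes scatter light more strongly than lymphocytes do, so a gate of low scatter is not where they are usually collected.

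The 7 genes went both ways, as their common label says, but only some of these differences stood on signal above background. Values are expression on the log2 scale, and each difference is zSP minus zMP, taken between the means of the arrays and followed by its range over the 4 pairs of a zSP and a zMP array. A gene was called when each of the 4 pairs differed 2-fold or more, a difference of 1, and all in 1 direction. On this rule apoeb, mpx, alox5ap and marco were called higher in zSP, pycard and ncf4 higher in zMP, and lyz was not called. These are 4 and 2 of the 7 genes, where 7.85% of all 8793 genes were called towards zSP and 2.89% towards zMP. The genes were picked with earlier results of these data known, so their shares are a description of 1 pair of pools. The median difference of the 7 genes was 1.60 and that of all genes was -0.21. Signal was read against a blank range, which ends at 6.15, the highest group mean among 49 control probe sets for sequences that zebrafish cells do not transcribe. Above it in either pool were mpx, marco, apoeb, pycard and lyz, whereas ncf4 and alox5ap lay within it in both pools, so that their transcripts were not shown to be there. The same 5 genes lay above it when its top was set at the next control, 5.24, a choice made after the controls were seen. Of the genes with signal above that range in at least 1 pool, a group in which large differences are more frequent by selection, 16.9% were called towards zSP and 6.57% towards zMP. By probe set, 4 of the 10 were called towards zSP and 2 towards zMP, where 6.65% and 2.5% of all 15502 probe sets were.

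**Figure D1:**
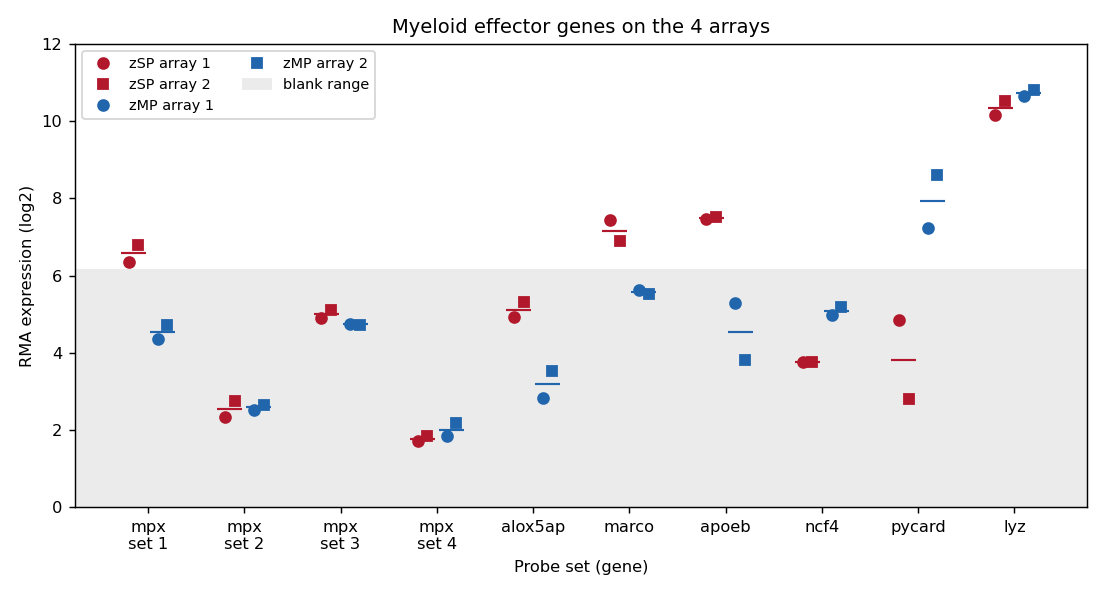
Expression on the log2 scale (vertical axis) of the 10 probe sets (horizontal axis) on each array, with zSP arrays in red, zMP arrays in blue, short lines for the mean of the arrays of a pool, and grey for the blank range up to 6.15. Of the 4 mpx sets only set 1 separates the pools by more than 2-fold, and pycard has the widest spread between arrays of a pool.

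The arrays themselves set the precision of these values. Across probe sets, which are no independent replicates, the aliquots of zSP had a Pearson's r of 0.943 and those of zMP 0.952, and arrays of different pools had 0.871 on average. Of the 49 blank controls, 48 were lower in zSP, with a median difference of -0.38 and a range from -0.94 to 0.13, and none of them was called. The difference between the 3′ and 5′ probe sets of the GAPDH control, which grows as copies are shortened, was 3.83 and 4.06 on the zSP arrays and 3.03 and 3.15 on the zMP arrays. No test between the populations was made, since each is 1 RNA pool. A model can only set the pools against the spread between aliquots. In that form limma gave none of the 7 genes a Benjamini-Hochberg adjusted p under 0.05 over the 8793 genes. Unadjusted, 6 of the 7 had a p under 0.05, as did 2286 of all 8793 genes. The adjusted p of the 6 called genes ran from 0.0547 for mpx to 0.109 for pycard. The same fit passed 310 of the 944 genes called by size.

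The granule genes mpx and lyz, both used as neutrophil markers in this fish, did not behave alike. The gene mpx encodes myeloperoxidase, which turns hydrogen peroxide and chloride into hypochlorous acid. Its brightest probe set, Dr.9478.3.S1_a_at, read 6.37 and 6.79 on the zSP arrays and 4.35 and 4.72 on the zMP arrays. The zSP values were the higher ones on every pairing, and the zMP values lay within the blank range. The difference was 2.05 (1.65 to 2.45), which is 4.13-fold on a linear scale against a background reading, and 470 of the 8793 genes, or 5.35%, were at least as far towards zSP.

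The other mpx probe sets did not share this difference. In the plot of values by array, Dr.9478.3.S1_a_at is set 1, and sets 2 to 4 are Dr.9478.2.S1_at, Dr.9478.4.S1_a_at and Dr.9478.4.S1_at. Dr.9478.4.S1_a_at read 4.89 and 5.10 in zSP against 4.75 and 4.72 in zMP, a difference of 0.26 (0.14 to 0.38). Dr.9478.2.S1_at differed by -0.04 (-0.30 to 0.23) and Dr.9478.4.S1_at by -0.23 (-0.47 to 0.00). All 3 stayed within the blank range in each pool, which gives no separate reading of the transcript. Averaged over its 4 probe sets, mpx differed by 0.51 and was not called. Affymetrix ends the name of a probe set in _a_at where its probes match several transcripts of a gene, and with such sets left out, a choice made after the values were seen, mpx was read from Dr.9478.2.S1_at at -0.04. The mpx difference therefore rests on 1 of 4 probe sets.

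Lysozyme, encoded by lyz, cuts the cell wall of bacteria and in zebrafish is made by neutrophils and by part of the macrophages. It was the only member above the blank range in both pools. Its probe set, Dr.12602.1.S1_at, read 10.17 and 10.51 on the zSP arrays and 10.67 and 10.80 on the zMP arrays. The pools did not overlap, but the gap between them was small beside that of the called genes. The difference was -0.40 (-0.64 to -0.15), and 3251 genes, or 37.0%, were at least as far towards zMP. It lay close to the median of the blank controls, whose values are far lower than those of lyz. After median centring the lyz difference was -0.32 and after a second quantile normalization -0.38. After cyclic loess, which moved the median of all genes from -0.21 to 0.00, it was -0.04. Such separation is common here, since the arrays of the pools did not overlap for 62.7% of all genes.

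The oxidase subunit gene ncf4 encodes p40phox, a cytosolic part of the phagocyte NADPH oxidase that binds a lipid of the phagosome membrane. Its probe set, Dr.12333.1.A1_at, read 3.77 and 3.75 on the zSP arrays and 4.98 and 5.20 on the zMP arrays. The arrays of each pool lay close together, and every zMP value was the higher one. The difference was -1.33 (-1.45 to -1.21), and 377 genes, or 4.29%, were at least as far towards zMP. All 4 values lay within the blank range. The difference was larger than that of any of the 49 blank controls, the lowest of which was -0.94. After cyclic loess it was -1.07 and not called.

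Of the 9 genes listed for the oxidase, 4 were measured, and 1 was called in each direction. The small GTPase rac1a, a gene most cells express, was higher in zSP by 4.1 (3.18 to 5.02). The membrane subunit cyba, which carries part of the flavocytochrome, differed by -0.79 (-1.20 to -0.38). The organiser subunit ncf1 differed by 0.34 (0.09 to 0.59). Neither of these was called, and both lay above the blank range in each pool. The list median was -0.23.

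The inflammasome adaptor pycard had the largest difference of the 7 genes. Its product, ASC, joins sensor proteins to inflammatory caspases and gathers into a single speck in an activated cell. Its probe set, Dr.8329.1.S1_at, read 4.85 and 2.80 on the zSP arrays and 7.23 and 8.61 on the zMP arrays. The pools were far apart, with zMP above and zSP within the blank range, but the aliquots of each pool also differed. The difference was -4.10 (-5.81 to -2.38), or 17.1-fold lower in zSP against a background reading, and 5 genes, pycard included, were at least as far towards zMP. The gap between the zSP aliquots was 2.05, and 3.78% of genes had one as large. The gap between the zMP aliquots was 1.38, and 7.40% of genes had one as large. With 1 array left out at a time the difference lay between -5.12 and -3.07.

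Of 26 genes listed for the inflammasome and the interleukin-1 pathway, 10 were measured, of which 1 was called towards zSP and 2 towards zMP. The caspase gene caspa, whose product is recruited by ASC in zebrafish, was the other gene higher in zMP, at -1.70 (-1.94 to -1.46). It read 2.37 and 2.63 in zSP and 4.30 and 4.09 in zMP, all within the blank range. The related caspb differed by -0.65 (-0.82 to -0.49) and the gasdermin gsdmeb, a pore-forming protein, by -0.59 (-0.79 to -0.40), and neither was called. Both lay within the blank range in each pool, and blank controls themselves differed by -0.94 to 0.13. Some other uncalled genes within that range had the higher mean in zSP. The gene irak4, above the range in both pools, went towards zMP uncalled, at -1.165 (-2.253 to -0.077). The initiator caspase casp9, which belongs to the mitochondrial route of cell death, was higher in zSP by 2.24 (1.28 to 3.21), or 1.42 without zMP replicate 2. The list median was -0.51, and the pairs of arrays gave -0.52 to -0.28.

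The gene alox5ap encodes FLAP, a membrane protein that hands arachidonic acid to 5-lipoxygenase in the first step of leukotriene synthesis. Its probe set, Dr.7610.1.A1_at, read 4.92 and 5.32 on the zSP arrays and 2.83 and 3.53 on the zMP arrays. The zSP values were higher on every pairing, and all 4 lay within the blank range. The difference was 1.94 (1.39 to 2.49), and 513 genes, or 5.83%, were at least as far towards zSP. The highest difference among the 49 blank controls was 0.13. With 1 array left out at a time the alox5ap difference stayed between 1.59 and 2.29.

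Of 23 genes listed for leukotriene and prostanoid enzymes, 10 were measured, and alox5ap was the only one called. A lipoxygenase gene measured beside it, alox5b.3, lay within the blank range and differed by -0.02 (-0.16 to 0.12). The cyclooxygenase genes ptgs1 and ptgs2a, which start prostaglandin synthesis, differed by 0.28 (-0.58 to 1.15) and 0.57 (0.24 to 0.90), within the blank range in each pool. The list median was -0.15 (-0.31 to 0.06 over the pairs of arrays).

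The scavenger receptor gene marco encodes a collagen-like surface receptor that binds bacteria and is used as a macrophage marker. Its probe set, Dr.26268.1.A1_at, read 7.44 and 6.89 on the zSP arrays and 5.62 and 5.53 on the zMP arrays. The zSP arrays lay above the blank range and the zMP arrays within it, with no overlap. The difference was 1.60 (1.28 to 1.92), or 3.02-fold against a background reading, and 708 genes, or 8.05%, were at least as far towards zSP. With the top of the blank range at 5.24 both pools lay above it. Under other normalizations the difference was 1.36 to 1.67 and called in each. Since marco has 1 probe set, filters and choices of probe set could not alter its value.

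Apolipoprotein E, encoded by apoeb, carries lipid between cells and is made by macrophages and microglia of the fish as well as by other tissues. Its probe set, Dr.1246.1.S1_at, read 7.46 and 7.52 on the zSP arrays and 5.28 and 3.82 on the zMP arrays. The zSP arrays were close together and above the blank range, while the zMP arrays lay within it and apart from each other by 1.46, a gap reached by 6.60% of genes. The difference was 2.94 (2.18 to 3.71), or 7.70-fold against a background reading, and 213 genes, or 2.42%, were at least as far towards zSP. Leaving out zMP replicate 1 or 2 gave the ends of its range over single arrays left out, 3.68 and 2.21. Its paralogue apoea stayed within the blank range in each pool and differed by -0.38 (-0.61 to -0.14).

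**Figure D2:**
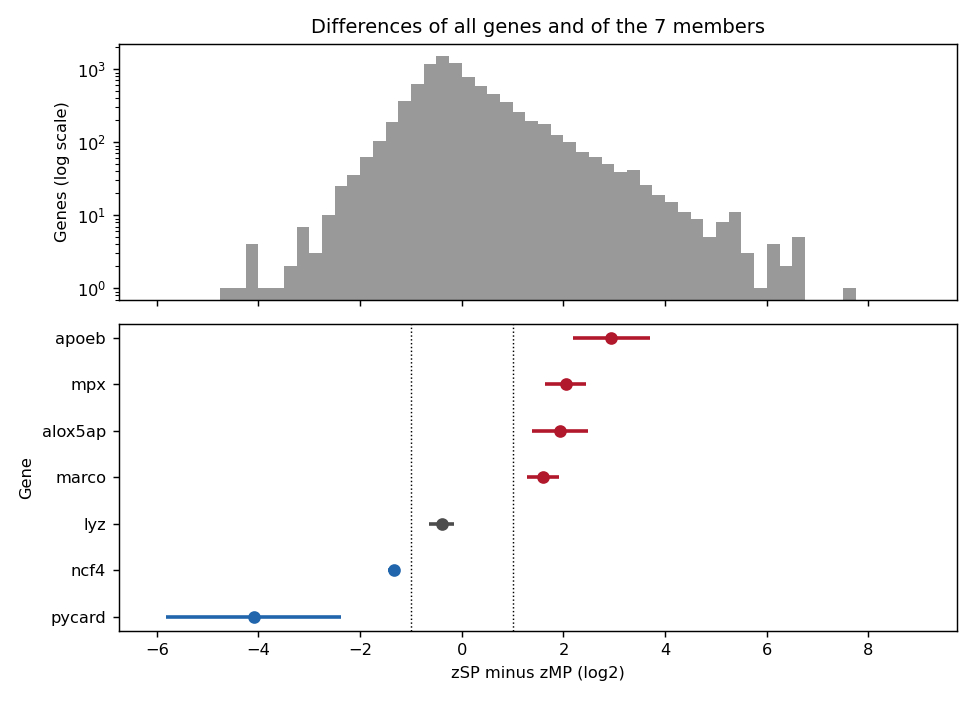
The upper panel counts all 8793 genes (log scale) by their log2 difference, zSP minus zMP, and the lower panel gives the 7 members on the same axis as points for differences of means and bars over the 4 pairs of arrays, in red where called towards zSP and in blue where called towards zMP. Dotted lines mark 2-fold; the bar of pycard runs from -5.81 to -2.38, and that of lyz lies between the dotted lines.

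Of 38 lipoprotein and scavenger receptor genes listed, 22 were measured, 4 were called towards zSP and none towards zMP. Beside apoeb and marco these were the receptors lrp1aa and vldlr, which can bind apolipoprotein E in mammals, at 3.54 (3.23 to 3.86) and 1.58 (1.46 to 1.71). The vldlr probe set is of a kind that matches more than 1 gene. Without such sets vldlr differed by 0.09 and was not called, and it is named here after its value was seen. Of the rest of this list 17 genes stayed within the blank range in each pool, and the list median was -0.42, below that of all genes. The macrophage apolipoprotein gene apoc1 was among them, at -1.08 (-1.69 to -0.48), and was not called.

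In the wider myeloid lists the called genes were higher in zSP except cd74b. Of 30 neutrophil and granulocyte genes listed, 13 were measured, 6 were called towards zSP and none towards zMP, with a median of 1.0 (0.76 to 1.45). The matrix metalloproteinase genes mmp9 and mmp13a, which other cells make too, differed by 5.25 and 5.07, and the transcription factor cebpd by 3.57, or 1.84 as the mean of its probe sets. Among the genes of this list above the blank range in both pools, srgn, a granule proteoglycan, went the other way without being called, at -0.73 (-0.91 to -0.55). So did cebp1, a transcription factor read from a probe set that can match other genes, at -0.53 (-0.62 to -0.43), and lyz. The others had the higher mean in zSP, with mmp13a and alas1 called, alas1 at 2.30 (1.78 to 2.83). Another called gene, timp2b, stayed within the blank range in each pool, at 2.80 (2.40 to 3.20). Of 43 monocyte and macrophage genes listed, 21 were measured, 6 were called towards zSP and 1 towards zMP, with a median of 0.49 (0.31 to 0.67). The lysosomal protease lgmn differed by 3.39 and the transcription factor mafbb, read from a probe set that matches more than 1 gene, by 3.14. The antigen presentation chaperone cd74b was the gene called towards zMP, at -1.17 (-1.24 to -1.10), which was -0.74 and uncalled after cyclic loess and also uncalled after median centring or a second quantile normalization. Its paralogue cd74a differed by -0.96 (-1.12 to -0.79) and the protease ctss2.2 by -0.53 (-0.63 to -0.44), all 3 above the blank range in both pools. Some other genes of this list above that range in both pools had the higher mean in zSP. Among them was grna.1, which was called at 2.77 (2.66 to 2.89). The receptor csf1ra, which macrophages need for growth, stayed within the blank range in each pool and differed by -0.35 (-0.47 to -0.22). Of 15 lysozyme and antimicrobial genes listed, 4 were measured and only mpx was called, with a median of 0.01.

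Among regulators of the myeloid lineage the called genes were higher in zSP. Of 21 transcription factor genes listed, 15 were measured, 4 were called towards zSP and none towards zMP, with a median of 0.76 (0.65 to 0.76). Beside cebpd and mafbb the immediate early gene egr1 differed by 1.95, which was 0.75 and uncalled as the mean of its probe sets. The factor runx3, also on the lymphocyte list, went towards zMP without being called, at -1.99 (-3.085 to -0.895). The Ets factor spi1b, which neutrophils and macrophages both need, read 8.36 and 8.39 in zSP and 8.45 and 8.32 in zMP. Its arrays overlapped between the pools, and the difference was -0.01 (-0.10 to 0.07). These values are of the brighter of its 2 probe sets, and as the mean of both the difference was -0.39 and not called. The lists share genes with each other and were drawn up with earlier results known, so they do not support the 7 genes independently.

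**Figure D3:**
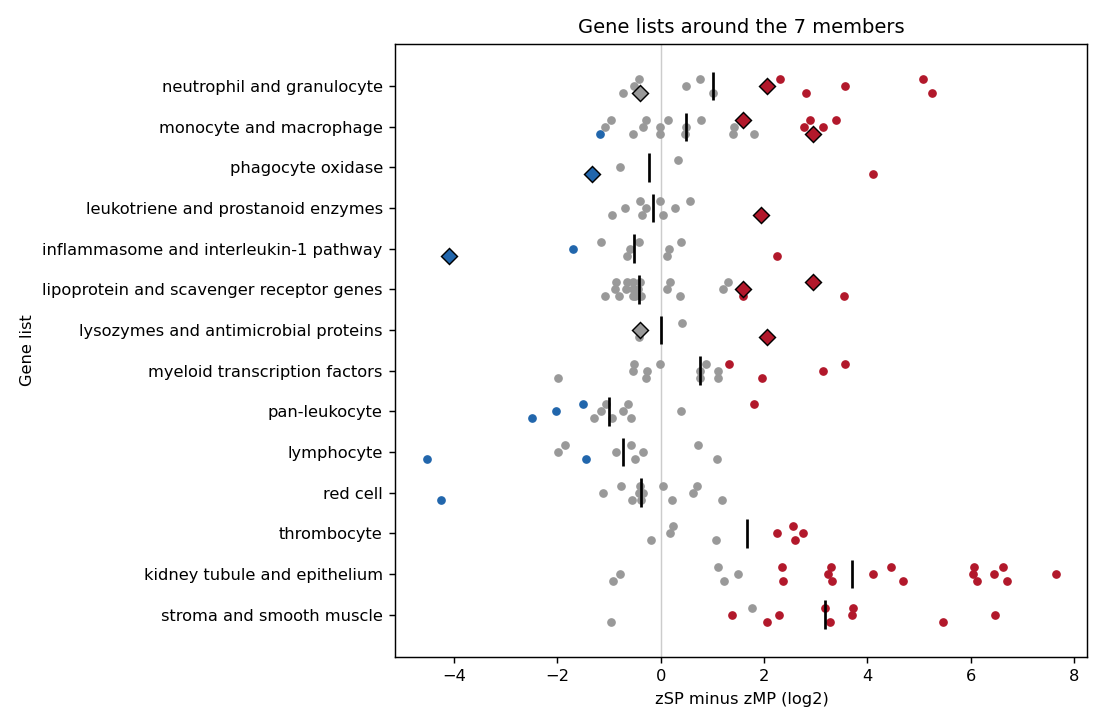
Differences, zSP minus zMP on the log2 scale (horizontal axis), of the measured genes of 14 lists (vertical axis), with red for genes called higher in zSP, blue for genes called higher in zMP and grey for the rest. Diamonds with a black edge are the 7 members and black bars are list medians, from -1.01 for the pan-leukocyte list to 3.71 for the kidney tubule and epithelium list.

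Some markers of other cells also differed between the pools. Most measured pan-leukocyte and lymphocyte genes had the lower mean in zSP, though most were not called. In these pooled samples, fewer cells of a type and less RNA per cell cannot be told apart. Of 12 pan-leukocyte genes measured, 1 was called towards zSP and 3 towards zMP, with a median of -1.01. The level summed over this list, on the log2 scale, was 13.65 and 13.72 in zSP and 14.21 and 14.41 in zMP. The actin regulators coro1a and capgb differed by -2.02 and -2.49, the first being -1.09 and uncalled as the mean of its probe sets, and the thymosin tmsb1 by 1.80. The leukocyte phosphatase ptprc read 8.87 and 8.91 in zSP and 9.55 and 9.51 in zMP, above the blank range on each array. Of 10 lymphocyte genes measured, 2 were called higher in zMP, the cytotoxic peptide nkl.4 at -4.53 and the costimulatory receptor cd28 at -1.45. The cd28 means lay within the blank range in each pool. Of this list 3 genes lay above that range in either pool. Among these btk was above it in both pools and went towards zSP uncalled, at 0.72 (0.57 to 0.87). The gene runx3 was above it in zMP alone and went towards zMP uncalled, at -1.99 (-3.085 to -0.895). It was read from the brighter of 2 probe sets. The summed level of that list was 8.91 and 9.23 in zSP and 10.29 and 10.21 in zMP. A large part of the zMP sums came from nkl.4, which read 9.35 on each zMP array. The recombinase genes rag1 and rag2, which developing lymphocytes use, stayed within the blank range in each pool. The part of these cells in the pycard and ncf4 differences was not tested.

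Most measured genes of the lists of non-blood cells, and some of the thrombocyte list, were higher in zSP beside mpx, alox5ap, marco and apoeb. Among kidney tubule and epithelium genes, 15 of the 20 measured were called towards zSP and none towards zMP, and the summed level was 13.77 and 13.74 in zSP against 8.68 and 8.65 in zMP. The adhesion gene epcam, the keratin krt18a.1 and the claudin cldn3d differed by 7.65, 6.71 and 6.62, epcam by 4.56 as the mean of its probe sets. In the stroma and smooth muscle list 9 of 11 were called higher in zSP, with summed levels of 12.14 and 11.93 against 8.13 and 8.34, and tagln, acta2 and postnb differed by 6.47, 5.46 and 3.71, postnb by 1.82 as the mean of its probe sets and within the blank range in each pool. In the thrombocyte list 4 of 8 were called higher in zSP, among them f13a1a.1 at 2.75, thbs1b at 2.60 and fn1b at 2.56, with summed levels of 9.04 and 8.81 against 7.79 and 7.82. Of these f13a1a.1 and thbs1b stayed within the blank range in each pool. The integrin itga2b, which marks the thrombocyte lineage and lay above that range in both pools, differed by 0.17 (-0.01 to 0.36), and the platelet glycoprotein gene gp1bb by -0.19 (-0.30 to -0.09) within it. In the red cell list 1 of 13, the globin hbaa1 at -4.25, was called higher in zMP, with summed levels of 7.42 and 7.57 against 8.70 and 8.86. The zMP sums rest largely on hbaa1, which read 7.97 and 8.24 there. It was the only gene of the list above the blank range in either pool. The summed levels of the neutrophil list were 13.37 and 13.24 in zSP and 11.93 and 11.97 in zMP, with mmp13a alone giving 44.6% and 40.6% of the zSP sums. Without mmp9 and mmp13a, a choice made after the values were seen, they were 12.31 and 12.21 in zSP and 11.84 and 11.93 in zMP. Those of the macrophage list were 13.99 and 14.02 in zSP and 14.12 and 14.30 in zMP. The part of epithelial, stromal or other cells in the differences of the 7 genes was not tested.

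The genes whose pattern over the 4 arrays was most like each member were found among 2797 named genes above the blank range in either pool. Likeness was the Euclidean distance between the log2 values after each gene was centred on its own mean, so that 0 is an identical pattern. With 4 points, from 1 pool per population, such a list describes these arrays only. Nearest to mpx were rhpn2 and gclc, at 0.08 and 0.10, the second encoding a subunit of the enzyme that starts glutathione synthesis. Nearest to alox5ap were the cytochrome gene cyp2p6 at 0.09 and hopx, an unusual homeobox gene, at 0.12. Nearest to marco were the ion channel trpm7 at 0.16 and schip1 at 0.20, the latter not called after a second quantile normalization. Nearest to apoeb were the arrestin relative arrdc3a at 0.25 and the chemokine cxcl12a at 0.29, whose difference of 3.18 was 2.01 as the mean of its probe sets.

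On the other side, nearest to ncf4 were the mitochondrial malate dehydrogenase mdh2 at 0.10 and the glucocorticoid receptor nr3c1 at 0.11, the latter not called after median centring or cyclic loess, nor at -0.80 as the mean of its probe sets. Nearest to lyz were the citric acid cycle gene idh3a and the nucleolar gene ncl, at 0.10 each. The pattern of pycard had no close match, with camkvl, a kinase relative, at 0.99 and the membrane protein gene tmem256 at 1.24. Their differences were -3.51 and -3.26, the first -1.86 as the mean of its probe sets and the second -1.81 without zSP replicate 2. The members ncf4 and alox5ap, within the blank range in both pools, were not among the genes searched. None of the other 5 was among the 2 nearest genes of another member.

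**Figure D4:**
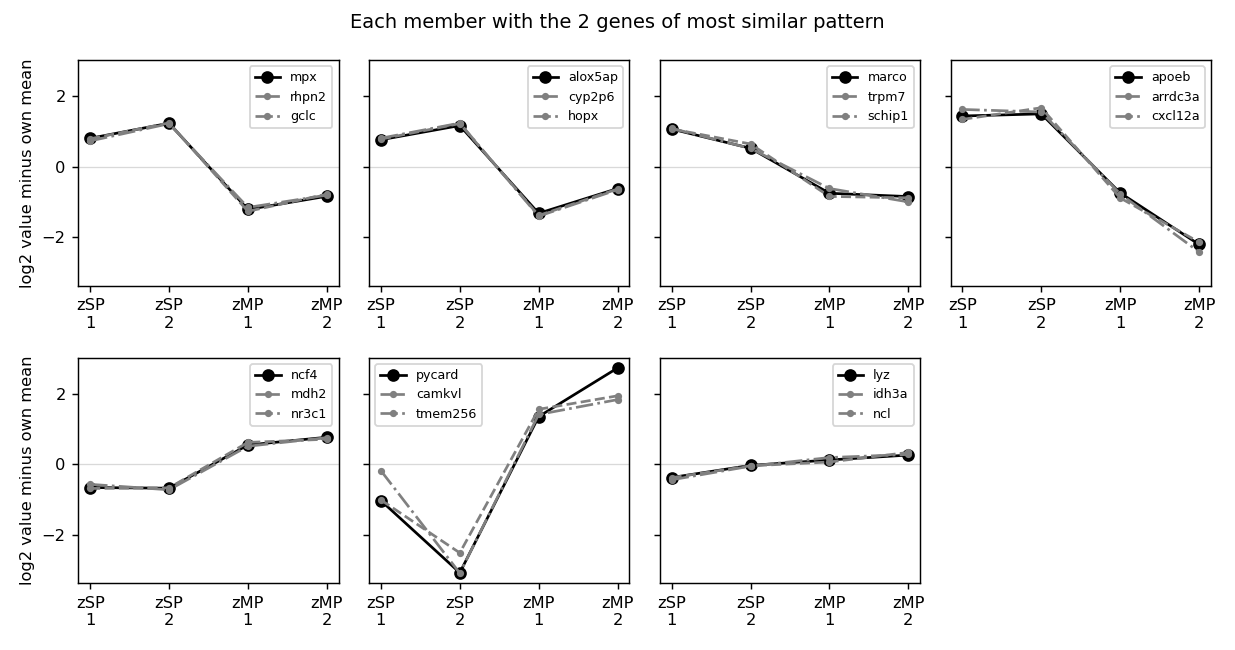
For each of the 7 members (black) and its 2 nearest genes (grey), the log2 value on each array minus the gene's own mean over the 4 arrays (vertical axis) is drawn by array (horizontal axis). The grey lines run along the black one for each member except pycard, whose nearest gene lies at a distance of 0.99.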

How the data were processed

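The deposited table holds log2 values of 15617 probe sets on an Affymetrix array for zebrafish, which the authors computed by RMA with affy, per the submitters' processing notes. Per the labels' protocols, RNA passed through 2 rounds of in vitro transcription and was labelled with biotin. Software versions were not given in the sources used here. Values were taken as deposited, without 115 control probe sets. With 2 arrays and 1 pool for a population, the number of arrays limits the precision.

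Probe sets with 1 gene in the platform annotation numbered 10795, those with several 135 and those with none 4572. Symbols were updated through gene identifiers in the GRCz12tu gene table, used for names alone, where 8723 of 8796 were found. A gene was represented by its brightest probe set on average over the arrays. The members and lists were chosen with earlier results of these data known. Of 306 listed symbols, 158 were found directly, 7 under an older symbol, and 141 were not measured here. Named are all members, up to 3 called genes of each list with the largest absolute difference, and the 2 genes nearest to each member. Other genes (cyba, ncf1, caspb, gsdmeb, irak4, alox5b.3, ptgs1, ptgs2a, apoea, apoc1, vldlr, csf1ra, spi1b, ptprc, rag1, rag2, cd74a, cd74b, ctss2.2, itga2b, gp1bb, srgn, cebp1, alas1, timp2b, grna.1, btk and runx3) were named after their values were seen. The blank range leaves out the bioB, bioC, bioD and cre control probe sets, which are made for RNA added at hybridization and read well above the other bacterial controls. A summed level is the log2 of the sum of the values of a list on the linear scale. The plain, trend and replicate block fits used limma 3.58.1 in R 4.3.3, with code tested on simulated arrays. No shared effect of same-numbered arrays was seen, as their deviations from their pool means had a correlation of -0.01 across probe sets. This cannot show whether such arrays were processed together. Alternatives were other sizes, normalizations, filters and probe set choices, each array left out, and limma.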

Additional observations from a re-analysis of the deposited data

How the results depend on the processing

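After median centring and after a second quantile normalization, 4 members were called towards zSP and 2 towards zMP. Of all 8793 genes, 742 and 207 were called in these directions after the first, and 649 and 309 after the second. Leaving out probe sets that match more than 1 gene could not alter the counts of members, as no member has such a set. The counts were the same at 1.5-fold, by the difference of means alone and with 1 array left out. Each of these loosens the rule, so no called member could be lost, which says nothing of stability. Only lyz could have been added, and it was not. At 3-fold, 2 members (mpx and apoeb) were called higher in zSP and 1 (pycard) higher in zMP. After cyclic loess 1 member was called higher in zMP, since ncf4 fell short at -1.07. Without low values alox5ap was not measured, and with averaged probe sets mpx was not called, which left 3 members higher in zSP in either case. Genes called towards zSP and zMP then numbered 588 and 230 of 5252 without low values. With averaged probe sets they numbered 646 and 236 of 8793. By limma's adjusted p, plain, with a trend or with the replicate block, 0 members passed in either direction, against 6 of 7 at an unadjusted p under 0.05. Of all 8793 genes, 2286 had such an unadjusted p in the plain fit and 2283 with a trend. The smallest adjusted p of a member was 0.0547 plain, 0.0584 with a trend and 0.119 with the block. The block left 0 of 8793 genes, where the plain fit passed 310 and the fit with a trend 476, and 1865 had an unadjusted p under 0.05 with it. In alternatives added after the values were seen, mpx was -0.037 by probe set Dr.9478.2.S1_at, 0.26 by Dr.9478.4.S1_a_at and -0.23 by Dr.9478.4.S1_at, and -0.037 without sets ending in _a_at, so 3 members were higher in zSP. Values under the alternatives were counted for 68 named genes, all but alas1, timp2b, grna.1, irak4, btk and runx3. Of their 1076 values under the alternatives chosen at the start, 0 called values changed sign, but many could not. Other sizes and limma reuse the same difference, and leaving out 1 array keeps only pairs that the call rule had tested. For a gene with 1 probe set, averaging returns the same value. Of 28 values of members under alternatives chosen after the values were seen, only those of mpx could differ. Of these, 3 changed sign, those at or below -0.037. Genes called towards zSP and zMP over the array numbered 690 and 254, against 396 and 61 at 3-fold, 1017 and 849 at 1.5-fold, and 1245 and 811 by the difference of means. With 1 array left out they numbered 969 to 1097 and 532 to 591. After cyclic loess 817 were higher in zSP and 166 higher in zMP. The number of arrays and the lack of a second pool limit all values, and for ncf4 and alox5ap so does signal within the blank range.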
